A study of Homo sapiens with 6 samples.

Results

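The KDM1A and CoREST complex removes methyl groups from lysine 4 of histone H3, and 9 genes of the complex and of its paralogous subunits, KDM1A, KDM1B, RCOR1, RCOR2, RCOR3, HDAC1, HDAC2, PHF21A and HMG20B, were followed by name in RNA-seq of a pancreatic cancer cell line with and without the chromatin regulator SAMD1. The members were taken by their symbols and not by their values, and all 9 were present among the 20347 gene symbols with values and among the 12773 genes tested. PaTu8988t is an established human line from pancreatic ductal adenocarcinoma (PDAC). The 3 Control libraries came from PaTu8988t cells that carried the CRISPR vector with a guide of no specific target. The 3 SAMD1 KO libraries came from clonally independent PaTu8988t lines edited by CRISPR/Cas9 with guides against SAMD1, so that each KO library is 1 clone, and the clones are called clone 1 to clone 3 by their replicate number. Edited cells were selected with puromycin, and the labels give no further treatment. Whether the Control replicates were separate cultures is not given in the sources used here, so p-values measure only the spread between these libraries, which may be technical among the Control libraries.

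KDM1A is a flavin-dependent enzyme that demethylates mono- and dimethylated lysine 4 of histone H3, a mark of active promoters and enhancers. It works on nucleosomes in a complex in which an RCOR protein (CoREST) is the scaffold that joins the demethylase to the histone deacetylases HDAC1 and HDAC2, PHF21A binds histone H3 whose lysine 4 is unmethylated, and HMG20B is a DNA-binding HMG-box protein. SAMD1 binds CpG islands that hold the motif GCGC and is known to work together with this complex at such islands. The question asked of these data was whether the mRNAs of the complex itself differed once SAMD1 was lost.

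The mRNA of the enzyme KDM1A and of most of its partners did not differ detectably between SAMD1 KO and Control cells, whereas the mRNA of RCOR2, a weakly expressed CoREST paralogue, was 2.39-fold higher in SAMD1 KO cells. HMG20B was higher in all 3 clones than in any Control library, by 33.4% in the means, without passing the cut-off on fold change. PHF21A was higher in clones 2 and 3 and not in clone 1.

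The promoters of 4 members are shown first, because the motif linked to SAMD1 can be looked for in them and because they belong to 2 members with fold changes close to 0 on the log2 scale, KDM1A and RCOR1, and to 2 that varied among the clones, PHF21A and HMG20B. The sequences are RefSeq sequences on GRCh38.p14, 5′ to 3′ along the gene, and end at the RefSeq start site or, where the GENCODE 44 gene begins further upstream, at the base before it. Capitals mark GCGC, which reads the same on both strands, and overlapping copies are each counted.
KDM1A (chr1:23019218-23019442, plus strand): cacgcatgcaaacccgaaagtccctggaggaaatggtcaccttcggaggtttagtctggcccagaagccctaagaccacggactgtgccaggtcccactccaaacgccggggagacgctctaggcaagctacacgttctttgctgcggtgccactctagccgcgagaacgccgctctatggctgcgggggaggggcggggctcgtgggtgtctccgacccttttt
RCOR1 (chr14:102592399-102592648, plus strand): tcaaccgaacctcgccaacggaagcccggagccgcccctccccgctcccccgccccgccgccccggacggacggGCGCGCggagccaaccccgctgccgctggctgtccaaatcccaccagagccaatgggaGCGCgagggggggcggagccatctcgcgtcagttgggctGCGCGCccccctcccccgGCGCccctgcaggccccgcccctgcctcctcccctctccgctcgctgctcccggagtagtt
PHF21A (chr11:46121455-46121704, minus strand): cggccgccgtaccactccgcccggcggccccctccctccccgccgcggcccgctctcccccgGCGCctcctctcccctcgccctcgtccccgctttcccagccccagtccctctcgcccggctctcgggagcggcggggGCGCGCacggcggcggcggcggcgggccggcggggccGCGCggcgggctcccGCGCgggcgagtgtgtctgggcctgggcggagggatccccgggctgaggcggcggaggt
HMG20B (chr19:3572694-3572776, plus strand): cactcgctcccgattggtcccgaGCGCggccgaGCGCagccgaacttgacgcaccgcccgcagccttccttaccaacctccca
The window of KDM1A holds no GCGC here, that of RCOR1 holds 6, that of PHF21A holds 5 and the shortened one of HMG20B holds 2. In the full windows of 250 bases before the RefSeq start, KDM1A had 3 copies, which lie in the stretch that GENCODE 44 already counts as its first exon. In full windows KDM1B had 7 copies, RCOR1 had 6, HDAC2 had 5, HMG20B had 4 and HDAC1 had 2. RCOR3 had 4 and 1 copies at its 2 start sites, and PHF21A had 5, 0 and 4 copies at its 3. The window without a copy, the second of PHF21A, also held no CpG. The promoter table held 8 of the 9 members, RCOR2 being the other, and 10 of their 11 windows held GCGC, beside 53.4% of all 35116 windows of this length. The member windows other than that one held between 18 and 42 CpG dinucleotides, against a median of 11 over all windows. KDM1A and RCOR1 as well as PHF21A and HMG20B had copies in their full windows, and the match is a description of these letters, since no binding was measured in these libraries.

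In the library check, total reads ran from 35589477 to 45172216, and the target gene SAMD1 (chr19:14087851-14091036) had normalized counts of 2231, 2382 and 2299 in Control libraries 1 to 3 and of 874, 1082 and 825 in clones 1 to 3. Every clone lay below every Control library, and the mean was 0.402-fold of Control in the unit that the authors deposited, reads over a size factor for the library (log2 fold change -1.32, SE 0.10, limma adjusted p = 0.000724). Of 5 epithelial markers, KRT8 and KRT18 reached at least 29200 normalized counts in every library, EPCAM ran from 422 to 626, CDH1 from 24.0 to 45.8 and KRT19 was listed at 0 throughout. The summed level of this list, mostly KRT8 and KRT18, was 62697 to 65909 in Control libraries and 67571 to 108505 in the clones. EPCAM (504 to 559 in Control, 422 to 626 in the clones) and CDH1 (24.0 to 45.8 and 37.8 to 44.5) overlapped between the groups. The defining fibroblast markers DCN and LUM, the T cell marker CD3E and all 5 acinar and islet markers were listed at 0. The summed level of the 5 fibroblast markers was 52.8 to 55.0 in Control and 18.0 to 44.9 in the clones, and that of 5 immune markers, mostly CD68, was 370 to 385 against 270 to 360. That of 4 endothelial markers was 80.1 to 85.9 against 35.6 to 85.4. CDH5 was at 29.4 to 37.7 in Control and 2.97 to 17.3 in the clones, without overlap. PECAM1 (18.3 to 22.9 against 7.91 to 31.5), VWF (21.7 to 29.8 against 16.4 to 40.5) and KDR (0.978 to 2.29 against 0.864 to 1.98) overlapped between the groups. The part of these marker differences in the results on the complex was not tested, and fewer cells with an mRNA and less of it per cell cannot be told apart in bulk libraries.

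**Figure D1:**
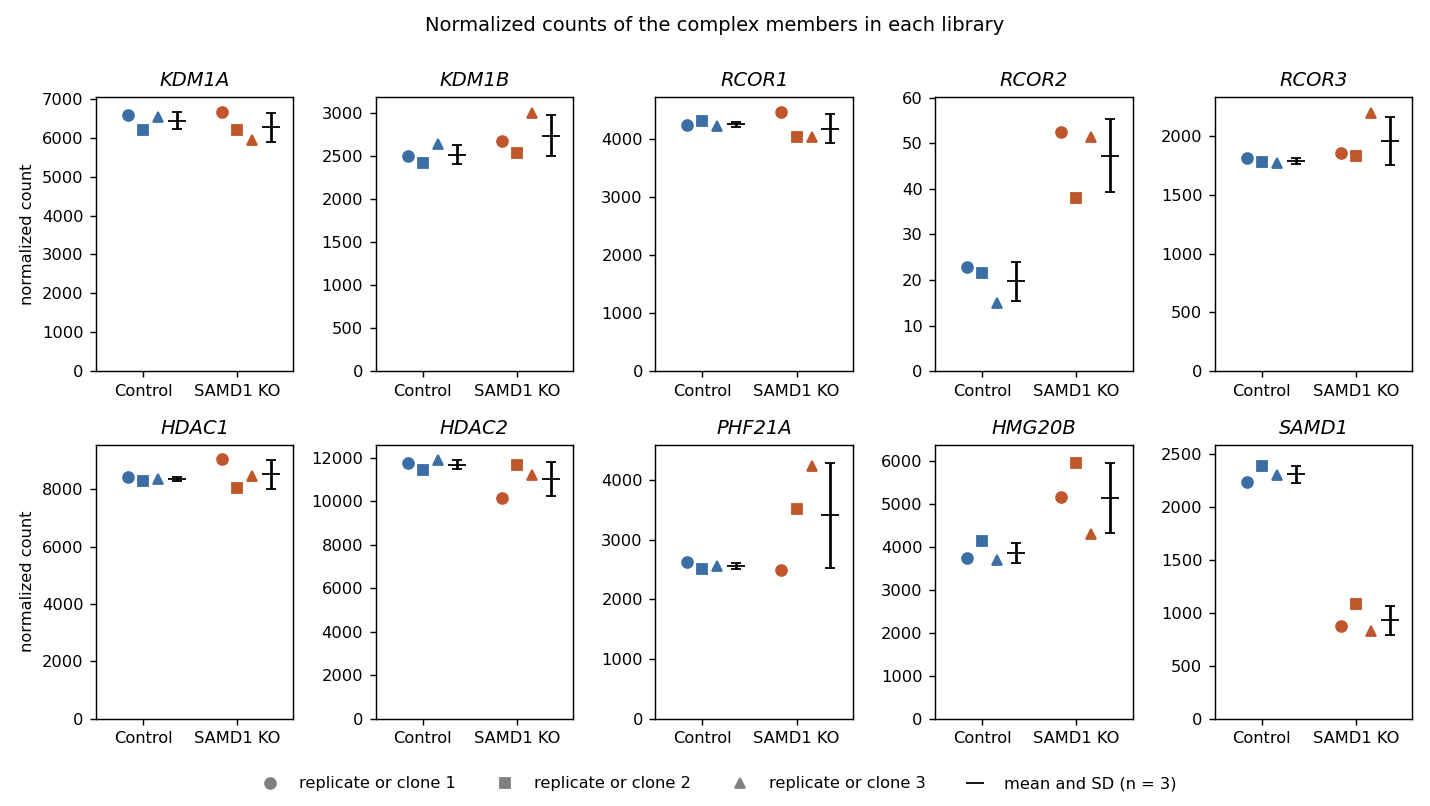
Normalized count of each member and of SAMD1 in the 3 Control libraries (blue) and the 3 SAMD1 KO clones (orange), one panel per gene with its own axis from 0; symbols give the replicate or clone number and black bars the mean and SD. RCOR2, HMG20B and, by a narrow margin, RCOR3 have all 3 clones above all 3 Control libraries, and PHF21A has clone 1 at the level of Control.

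KDM1A, the demethylase (chr1:23019443-23083689), had 6580, 6194 and 6548 normalized counts in Control libraries 1 to 3. Clones 1 to 3 had 6673, 6193 and 5936. The Control libraries lay between the clones, with clone 1 above them, clone 3 below them and clone 2 level with the lowest. The log2 fold change was -0.04 (SE 0.06, 95% interval -0.18 to 0.10, limma adjusted p = 0.696), so that the interval runs from 0.882-fold to 1.07-fold of Control.

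KDM1B (chr6:18155329-18223854) is the paralogous demethylase, which acts on the same lysine and is not held by CoREST. It had 2504, 2417 and 2637 normalized counts in Control and 2678, 2535 and 3006 in clones 1 to 3. Clones 1 and 3 lay above every Control library and clone 2 within their range (log2 fold change 0.12, SE 0.08, 95% interval -0.06 to 0.30, limma adjusted p = 0.342). Per kilobase of merged exons KDM1B was above KDM1A in Control (47.7 against 37.4, scaled as described below). Per kilobase of the longest transcript it was below KDM1A (42.1 against 84.4). In normalized counts, which are not per length, KDM1B within a library was 38.1%, 39.0% and 40.3% of KDM1A in Control. It was 40.1%, 40.9% and 50.6% in clones 1 to 3. These ratios overlapped, and an exact two-sided permutation test gave p = 0.2 (adjusted p = 0.4 over 4 ratios), where the smallest p that 3 against 3 libraries allow is 0.1.

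Of the scaffolds, RCOR1 (chr14:102592649-102730561), the founding CoREST scaffold, had 4240, 4313 and 4235 normalized counts in Control and 4476, 4046 and 4039 in clones 1 to 3. The 3 Control libraries lay between the clones, with clone 1 above and clones 2 and 3 below them (log2 fold change -0.03, SE 0.06, 95% interval -0.16 to 0.11, limma adjusted p = 0.789).

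RCOR3 (chr1:211258377-211316385), a paralogous scaffold, had 1819, 1780 and 1777 normalized counts in Control and 1856, 1828 and 2200 in the clones. The groups did not overlap, but clones 1 and 2 exceeded the Control mean by 0.05 and 0.03 on the log2 scale and clone 3 by 0.30. The difference did not pass the test (log2 fold change 0.13, SE 0.08, 95% interval -0.06 to 0.32, limma adjusted p = 0.344). RCOR3 was 41.3% to 42.9% of RCOR1 in Control libraries and 41.5%, 45.2% and 54.5% in clones 1 to 3 (exact two-sided permutation p = 0.3, adjusted p = 0.4). These are ratios of normalized counts and not per length.

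RCOR2 (chr11:63911230-63917164), the paralogue best known from embryonic stem cells and the nervous system, had 22.9, 21.5 and 14.9 normalized counts in Control and 52.4, 38.0 and 51.3 in clones 1 to 3. These values rest on 20, 22 and 13 reads in Control and on 53, 44 and 57 reads in the clones. Every clone lay above every Control library, and RCOR2 rose by 1.22 on the log2 scale (SE 0.26, 95% interval 0.61 to 1.83), with an unadjusted limma p of 0.00193 and an adjusted p of 0.0247. The recovered reads gave adjusted p = 0.0230 in edgeR and 0.0112 in DESeq2. The fold stayed past the cut-off without any single library, but the limma adjusted p was 0.0757, 0.0818 and 0.0998 without Control library 1, 2 or 3. RCOR2 remained a small part of the CoREST mRNAs. It was 0.540%, 0.499% and 0.352% of RCOR1 in Control libraries and 1.17%, 0.940% and 1.27% in clones 1 to 3, with no overlap (exact two-sided permutation p = 0.1, the smallest possible, adjusted p = 0.4). These shares are also of normalized counts and not per length.

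**Figure D2:**
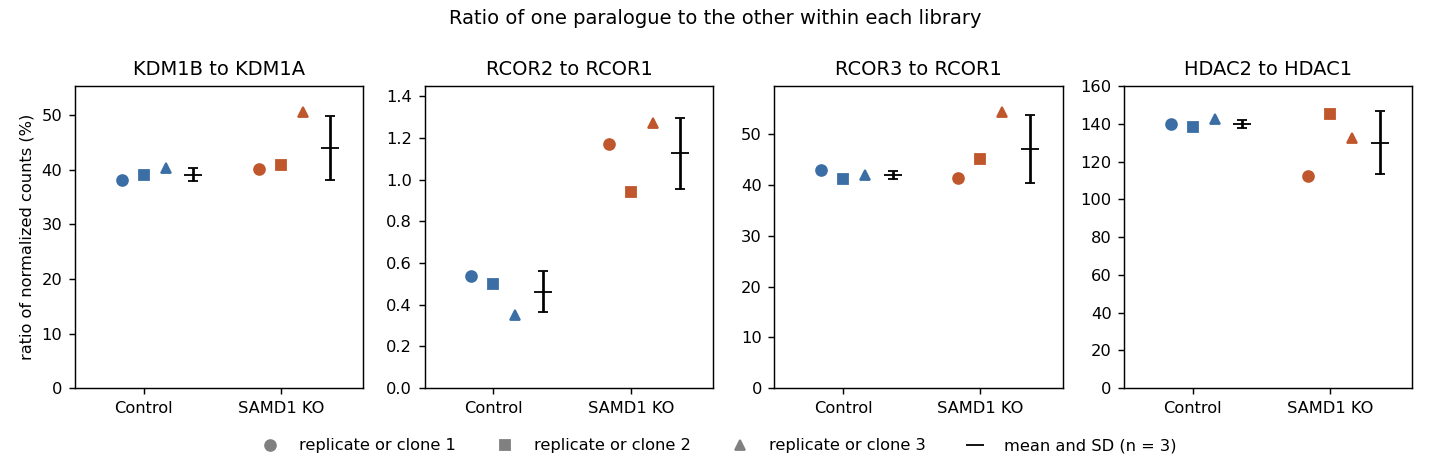
Ratio of normalized counts within each library, in percent, for KDM1B to KDM1A, RCOR2 to RCOR1, RCOR3 to RCOR1 and HDAC2 to HDAC1, with Control libraries in blue, SAMD1 KO clones in orange, and bars for the mean and SD (n = 3). Only the RCOR2 to RCOR1 ratio separates the groups, between 0.352% and 0.540% in Control and between 0.940% and 1.27% in the clones.

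HDAC1 and HDAC2 take acetyl groups off histone tails beside the demethylase. HDAC1 (chr1:32292083-32333635) had 8412, 8280 and 8350 normalized counts in Control and 9046, 8047 and 8469 in clones 1 to 3. Control libraries lay inside the range of the clones (log2 fold change 0.03, SE 0.06, 95% interval -0.10 to 0.16, limma adjusted p = 0.781). HDAC2 (chr6:113933028-114011308) had 11753, 11449 and 11891 in Control and 10149, 11677 and 11233 in the clones. Clone 1 was the lowest and clone 2 lay within the Control range (log2 fold change -0.09, SE 0.06, 95% interval -0.24 to 0.06, limma adjusted p = 0.392). HDAC2 was 138% to 142% of HDAC1 in Control libraries and 112%, 145% and 133% in clones 1 to 3, in normalized counts that are not per length (exact two-sided permutation p = 0.4, adjusted p = 0.4).

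PHF21A (chr11:45929319-46121454), the reader of unmethylated lysine 4, had 2621, 2504 and 2560 normalized counts in Control. Clones 1 to 3 had 2489, 3515 and 4234. Clone 1 lay just below the lowest Control library, whereas clones 2 and 3 lay above all of them. With this spread the log2 fold change of 0.38 (SE 0.17, 95% interval -0.02 to 0.79) did not pass, with an unadjusted limma p of 0.0621 and an adjusted p of 0.192. The adjusted p was 0.158 in edgeR and 0.0829 in DESeq2, from unadjusted values of 0.0444 and 0.0179. Without clone 1 it was 0.59 with an adjusted p of 0.00665 in limma. The SD among clones, 0.39 on the log2 scale against 0.03 among Control libraries, was large for these data, since 14.1% of all tested genes had a larger one.

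The chromosomal neighbours of PHF21A also differed among the clones. Over the 40 tested genes nearest to it, between chr11:36296288 and chr11:47426473, the median log2 difference from the Control mean was -0.35 in clone 1, 0.26 in clone 2 and 0.08 in clone 3, while the Control libraries ran from -0.02 to 0.04. In clone 1, 37 of these 40 genes were lower than the Control mean, and in clone 2, 33 of 40 were higher. PHF21A exceeded the median of its neighbours by 0.31, 0.20 and 0.65 in clones 1 to 3. With this regional shift removed from every library its log2 fold change was 0.39 and its adjusted p was 0.0434 (limma). Of the genes next to it, LARGE2 had 190, 199 and 173 normalized counts in Control and 43.5, 102 and 112 in the clones (log2 fold change -1.22, SE 0.34, limma adjusted p = 0.0575). On the other side CREB3L1, a membrane-bound transcription factor, had 886, 1012 and 932 in Control and 1653, 1504 and 1322 in the clones (log2 fold change 0.66, SE 0.10, limma adjusted p = 0.00683). The groups did not overlap for either neighbour, LARGE2 lying below and CREB3L1 above Control in all 3 clones. Gene copy number was not measured.

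HMG20B (chr19:3572777-3579088), the HMG-box subunit, had 3743, 4118 and 3678 normalized counts in Control and 5160, 5934 and 4298 in clones 1 to 3. Every clone lay above every Control library, clone 2 most and clone 3 least. The log2 fold change was 0.40 (SE 0.12, 95% interval 0.13 to 0.67), with an unadjusted limma p of 0.00913 and an adjusted p of 0.0612. HMG20B therefore passed the cut-off on p and not that on fold, and the adjusted p was 0.0557 in edgeR and 0.00936 in DESeq2. Without clone 3 the log2 fold change was 0.53 with an adjusted p of 0.0102 in limma. The median over the 40 nearest genes was -0.03, 0.13 and -0.03 in clones 1 to 3, and with it removed the log2 fold change was 0.38 with an adjusted p of 0.0149 in limma. HMG20B shares 369 exon bases, 9.57% of its merged exons, with MFSD12 on the opposite strand. MFSD12 had 2053, 2215 and 1942 normalized counts in Control and 2015, 1955 and 2070 in clones 1 to 3, so that its groups overlapped (limma adjusted p = 0.740). The strand setting of the counting is not given in the sources used here, and the share of reads from these bases was not tested.

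**Figure D3:**
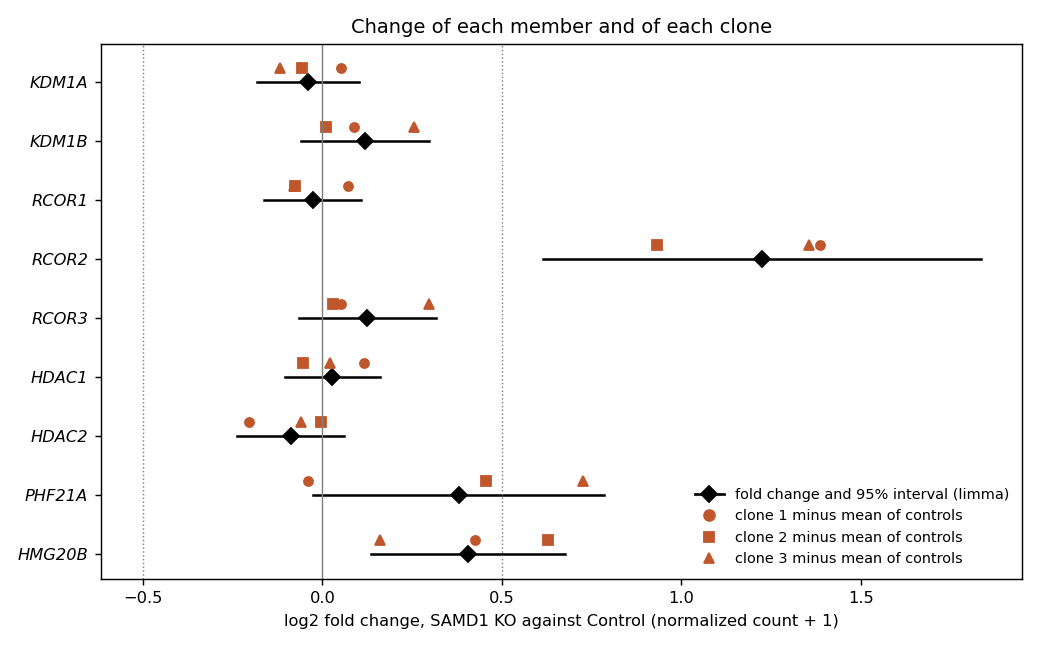
Log2 fold change from Control to SAMD1 KO for each member with its 95% interval from limma (black), and the difference of each clone from the Control mean (orange symbols); dotted lines mark 0.5 in both directions. The interval of RCOR2 lies wholly above 0.5, that of HMG20B lies wholly above 0, and those of the other 7 members include 0.

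Across the complex, 1 of 9 members, RCOR2, passed the cut-off that the study used, a log2 fold change beyond 0.5 with an unadjusted p under 0.01. Of all tested genes 7.85% passed it, and 5.77% passed it in the higher direction. The same member was the only one with an adjusted p under 0.05 in limma, beside 13.0% of all tested genes and 8.32% in the higher direction. An unadjusted p under 0.05 was reached by 2 members in limma, RCOR2 and HMG20B, beside 29.6% of all tested genes. In edgeR and in DESeq2 it was reached by 3 members, with PHF21A added, and the shares of all tested genes in these tools are not given here. In the lower direction 0 members passed in limma, and 0 had an unadjusted p under 0.05 in limma, edgeR or DESeq2. The groups did not overlap for 3 members, RCOR2, RCOR3 and HMG20B, all higher in SAMD1 KO cells, whereas 37.8% of all tested genes had groups that did not overlap and 19.2% had them higher in the clones. The limma counts of members lie near the shares of all genes, and nothing particular to the complex can be read from any of these counts. The median log2 fold change was 0.12 over the 9 members and -0.01 over all tested genes. Clones differed more than Control libraries in 8 of the 9 members, RCOR2 being the other, as they did in 82.8% of all tested genes.

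**Figure D4:**
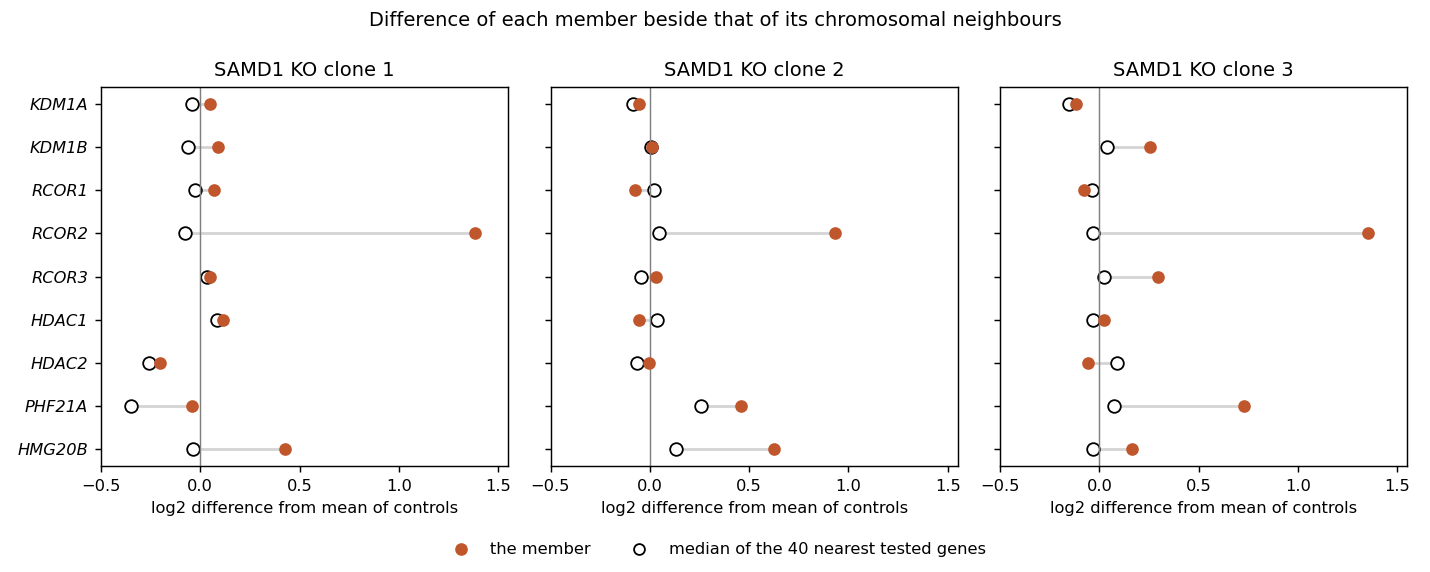
Log2 difference from the Control mean in each SAMD1 KO clone, for each member (orange) and for the median of the 40 tested genes nearest to it (open circles), joined by a grey line. The neighbours of PHF21A lie at -0.35 in clone 1 and at 0.26 in clone 2, and RCOR2 lies far from its neighbours in every clone.

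At the other members the regional shift did not reach 0.3 in any clone with 40 neighbours. HDAC2 in clone 1 was at -0.20 and its neighbours were at -0.26, with 31 of the 40 genes lower (-0.33 over the 20 nearest genes), and with the shift removed its log2 fold change was -0.01. The neighbours of KDM1A were at -0.04, -0.08 and -0.15 in clones 1 to 3, and with them removed the KDM1A log2 fold change was 0.05 in place of -0.04 (limma adjusted p = 0.471). Around RCOR2, on the same chromosome as PHF21A, the shift was -0.08, 0.05 and -0.03, and RCOR2 kept a log2 fold change of 1.24 with it removed.

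Levels of different members can be compared per length. Reads per kilobase of merged exons, scaled so that all genes of a library sum to 1000000, put HDAC1 first in Control at 224 ± 1.26 (SD, n = 3) and HMG20B next at 106 ± 6.91, followed by HDAC2 at 81.2 ± 1.66, RCOR1 at 73.2 ± 1.16 and KDM1B at 47.7 ± 2.24. KDM1A followed at 37.4 ± 1.12, then RCOR3 at 21.0 ± 0.0837, PHF21A at 10.9 ± 0.175 and RCOR2 at 0.689 ± 0.145. In Control no 2 neighbours in this order overlapped over the 3 libraries. In SAMD1 KO cells the order on this scale was the same, but HDAC2 and RCOR1 overlapped, HDAC2 reaching down to 71.1 and RCOR1 up to 77.5.

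The place of KDM1A in this order depended on the length used. Per kilobase of the longest transcript, KDM1A was at 84.4 ± 2.50 in Control and ranked 4, and per kilobase of the MANE Select transcript, the agreed reference transcript of a gene, it was at 138 ± 3.99 and ranked 3, against rank 6 on merged exons. The merged exons of KDM1A span 18325 bases and its MANE Select transcript 3085. HDAC1, HMG20B, RCOR3, PHF21A and RCOR2 kept ranks 1, 2, 7, 8 and 9 in Control on all 3 lengths.

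**Figure D5:**
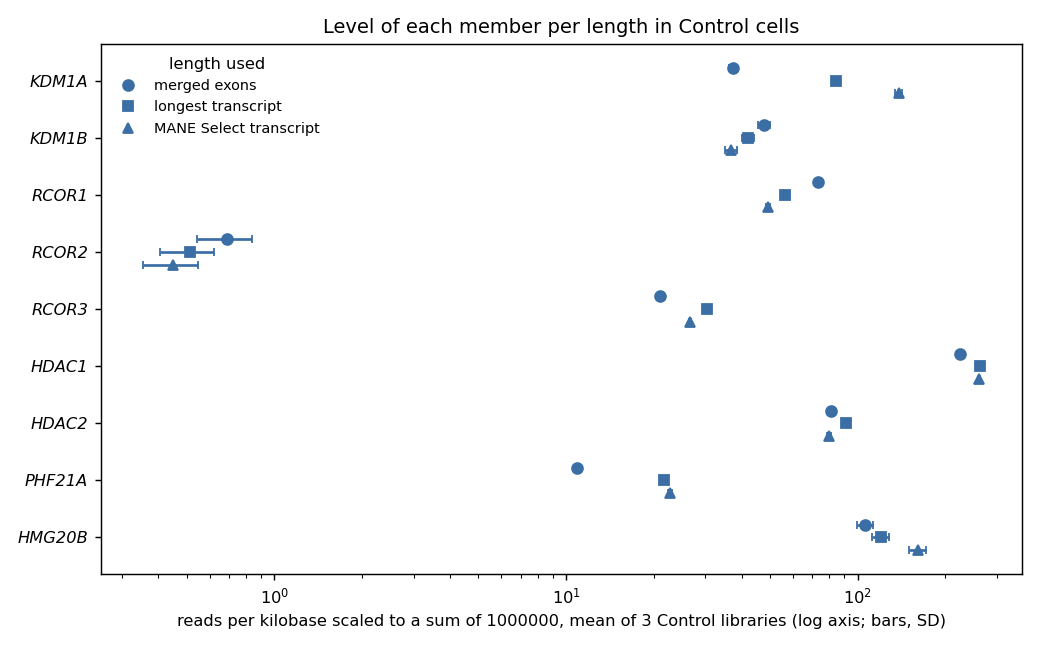
Level of each member in Control cells on a log axis, as reads per kilobase scaled to a sum of 1000000 (mean and SD of 3 libraries), with the length taken as merged exons, the longest transcript or the MANE Select transcript. RCOR2 lies below 1 on all 3 lengths, and KDM1A moves from 37.4 to 138.

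The genes whose log2 levels followed KDM1A most closely over the 6 libraries were TEX30, UPF3B, KTI12, CDC6 and C1orf174, with Pearson r from 0.993 down to 0.977. This is a description of 6 libraries that also share their groups and depth, and 127 of the 11452 genes searched had an r above 0.9. RCOR1 had an r of 0.74 with KDM1A, HDAC1 0.50, HMG20B -0.18, HDAC2 -0.23, KDM1B -0.39, RCOR3 -0.65 and PHF21A -0.81. RCOR2 was below the mean count used for this search.

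Around the complex, 13 lists of 129 genes were counted, of which 104 were tested. In limma 8 passed the cut-off, all higher in SAMD1 KO cells, and 12 were higher and 1 lower by adjusted p, counts that lie near the 7.85% and 13.0% of all tested genes. The lists are described by their calls, and nothing particular to a list is read from them. Of 10 transcription factors that recruit KDM1A and CoREST to DNA, 4 had too few reads to be tested, 3 were higher by both rules and the other 3 did not pass, with negative log2 fold changes down to -0.64. ZEB1, a repressor that drives the epithelial-mesenchymal transition, had 2059, 1982 and 2063 normalized counts in Control and 3138, 3023 and 3056 in clones 1 to 3 (log2 fold change 0.59, SE 0.05, limma adjusted p = 0.000895). GFI1, whose SNAG domain binds KDM1A, had 198, 192 and 211 in Control and 315, 371 and 454 in the clones (log2 fold change 0.91, SE 0.15, limma adjusted p = 0.00916). INSM1, another SNAG-domain factor, had 8.01, 0 and 1.15 in Control and 27.7, 27.6 and 27.9 in the clones (limma adjusted p = 0.0277), counts so low that the size of its change depends on the value added before the log. INSM1 reached the mean count for testing only through the clones. In ZEB1, GFI1 and INSM1 every clone lay above every Control library, as in 19.2% of all tested genes.

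Of 4 MBT-domain proteins, the family of the SAMD1 partners, 3 passed both rules. Among all tested genes 7.85% passed the cut-off and 13.0% had an adjusted p under 0.05 in limma. L3MBTL3 had 914, 839 and 948 normalized counts in Control and 3574, 4521 and 4411 in the clones (log2 fold change 2.20, SE 0.10, limma adjusted p = 0.000120). SFMBT1, which also joins KDM1A complexes, had 2067, 1887 and 2046 in Control and 3071, 3358 and 2712 in the clones (log2 fold change 0.60, SE 0.09, limma adjusted p = 0.00606). SFMBT2 had a log2 fold change of 0.71 (SE 0.11, limma adjusted p = 0.00691). L3MBTL4 passed neither rule, with a log2 fold change of 0.16, the lowest of the list.

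HDAC1 and HDAC2 also work in other complexes. Of 13 genes of NuRD, RBBP7, a histone-binding subunit, was higher (log2 fold change 0.42, SE 0.06, limma adjusted p = 0.00681) and MBD2, which binds methylated DNA, was lower (-0.33, SE 0.06, limma adjusted p = 0.0127), both under the fold cut-off. Of 12 listed SIN3 genes and 7 listed genes of the MIDAC and MIER complexes 0 passed either rule in limma, edgeR or DESeq2, with 1 and 2 genes at an unadjusted p under 0.05 in limma. RBBP7 was counted with NuRD and was not in the SIN3 list. Of 6 tested genes of the NCOR and other class I deacetylase list, TBL1X passed both rules (log2 fold change 0.70, SE 0.07, limma adjusted p = 0.00159). In the same list HDAC3, the deacetylase of the NCOR complex, had 4235, 4055 and 3977 normalized counts in Control and 3679, 2306 and 3502 in clones 1 to 3, every clone below every Control library, and did not pass (log2 fold change -0.40, SE 0.17, limma adjusted p = 0.158). Its log2 differences from the Control mean were -0.15, -0.83 and -0.22 in clones 1 to 3. Groups without overlap in either direction were found in 37.8% of all tested genes. Of 11 further genes listed around the complex and its paralogues 8 had negative log2 fold changes, with a median of -0.05. ZNF516 of this list was higher by adjusted p (log2 fold change 0.42, SE 0.11, limma adjusted p = 0.0437). Of these 11 genes 3 were lower at an unadjusted p under 0.05 in limma, and DESeq2 called 1 lower by adjusted p. The 5 genes of the FBXO11 ubiquitin ligase list gave 0 calls in limma, edgeR and DESeq2, and 0 had an unadjusted p under 0.05 in any of these tools.

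Other enzymes write or remove the same mark or share the cofactor of KDM1A. Of the other H3K4 demethylases, KDM5C was higher (log2 fold change 0.24, SE 0.06, limma adjusted p = 0.0371), and KDM5A and KDM5B did not pass. Of 18 genes of the H3K4 methyltransferase complexes, KDM6A was higher (log2 fold change 0.26, SE 0.07, limma adjusted p = 0.0490), with a median of -0.05 over the list. RBBP7, TBL1X, KDM5C and KDM6A all lie on chromosome X. The share called among all tested genes of that chromosome is not given here, so nothing is read from this location. Of 4 tested genes for riboflavin uptake and the synthesis of FAD, the cofactor of KDM1A, 0 passed in limma, edgeR or DESeq2, and 0 had an unadjusted p under 0.05 in limma. Of 3 tested flavin amine oxidases related to KDM1A, 0 passed in limma and edgeR and 1 was higher in DESeq2, with 1 at an unadjusted p under 0.05 in limma, and their log2 fold changes ran from -0.27 to 0.50. Of 29 neuronal genes that REST and CoREST are known to repress, 12 were tested and 17 had too few reads. GAD1, which makes the transmitter GABA, passed both rules (log2 fold change 0.75, SE 0.10, limma adjusted p = 0.00523) and was the only one of the list to do so in limma, beside the 7.85% of all tested genes past the cut-off. Of the 12 tested genes 9 had positive log2 fold changes, with a median of 0.30 against -0.01 over all tested genes. In DESeq2 2 were higher past the cut-off and 2 by adjusted p. An unadjusted p under 0.05 was reached by 2 in limma, 4 in edgeR and 5 in DESeq2, all higher. Among all tested genes 29.6% reached it in limma, in either direction, and the shares in edgeR and DESeq2 are not given here. Whether some of these neuronal genes reached the mean count for testing only through the clones was not examined. Nothing particular to the list is read from these values.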

How the data were processed

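RNA-seq was made from 3 Control and 3 SAMD1 KO libraries of PaTu8988t cells, grouped by their labels. RNA was purified with a DNase step, and stranded mRNA libraries were sequenced. The authors aligned the reads to GenCode 43 with STAR, and the submitters' notes name featureCounts, DESeq2 and hg38. The signal they deposited gives, for each gene, reads over the DESeq2 size factor of the library (0.873 to 1.16). All values of a library were whole multiples of 1 step (100% within 0.01 of a read), so reads were recovered. The authors' table of their own comparison (mean, fold change, SE, statistic, p-values) was not used, and 0 sample columns were left unused.

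Values were tested as log2(normalized count + 1) with limma 3.58.1 (lmFit, eBayes with trend) in R 4.3.3 for genes with a mean of at least 10, with Benjamini-Hochberg adjustment over all tested genes, and fold changes are on this scale. Genes with a log2 fold change beyond 0.5 and p under 0.01 met the study's cut-off. Intervals are 95%. Ratios were compared by exact permutation. Positions and lengths are from GENCODE 44 on GRCh38, and 182 symbols were matched by an older name. Alternatives were edgeR 4.0.16 and DESeq2 1.42.0 on recovered reads, pseudocounts of 0.1 and 10, no filter, a mean of at least 50, the replicate number as a block, scaling to a common 75th percentile, each library left out, the regional shift removed, an adjusted p under 0.01 in the cut-off, 20 neighbours, and the longest transcript. The MANE Select length was added after seeing the data. The fits were tested on simulated data.

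Named were the 9 members, SAMD1, L3MBTL3, SFMBT1, up to 3 genes per list with the smallest p among those past either rule, the 5 genes most like KDM1A among those with a mean of at least 50, and the 2 neighbours of a member whose region shifted by over 0.3 in a clone. HDAC3, KDM5A, KDM5B and MFSD12 are not covered by this rule, and they were picked once their values were known. The members and lists were chosen with earlier results of these data known. Other steps used Python 3.11.15, pandas 2.3.3 and SciPy 1.17.1.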

Additional observations from a re-analysis of the deposited data

How the results depend on the processing

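Members were past the cut-off 1 time in the reported fit and kept this count under most alternatives. With a mean count of at least 50, which leaves RCOR2 untested, 0 members passed either rule, and with an adjusted p under 0.01 in the cut-off 0 passed. Leaving out each library in turn gave 1 to 2 members past the cut-off and 0 to 2 by adjusted p. The second member was PHF21A without clone 1 and HMG20B without clone 3, and 0 passed by adjusted p without Control library 1, 2 or 3. By adjusted p DESeq2 called 2 members and the fit with the regional shift removed called 3. Shares of all tested genes called under the alternatives are not given here. Without clone 1 the PHF21A log2 fold change was 0.59 and without clone 3 that of HMG20B was 0.53, both past the cut-off, over ranges of 0.21 to 0.59 and 0.29 to 0.53. KDM1A turned to 0.052 and HDAC1 to -0.0080 with the regional shift removed, and HDAC1 ran from -0.016 without clone 1 to 0.068 without clone 2, all with adjusted p above 0.05. RCOR2 ran from 0.94 to 1.37 over 14 alternatives and passed the cut-off in all of them, and it had an adjusted p under 0.05 in 10, the other 4 lying between 0.0547 and 0.0998.

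The deviations of same-numbered libraries from their group means had correlations of 0.04, 0.13 and 0.03. The labels do not say whether equal numbers pair libraries, and these correlations cannot decide it. The replicate block kept 1 member past the cut-off and 1 by adjusted p, a different one, with RCOR2 at 0.0547 and HMG20B at 0.0333. Of the further values (levels per length, regional shifts and list counts) 64 stayed within their spread and 33 moved, mainly levels with another length and shifts with 20 neighbours. With 3 libraries a group the spread among clones limits precision, and the low counts of RCOR2 limit it further. The cause of the changes between alternatives was not tested, except that a filter at 50 removes RCOR2.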
